A study of Homo sapiens with 6 samples.

Results

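The regions described here are the tips and the interiors of 8 large chromosomes, chr1, chr2, chr3, chr6, chr7, chr8, chr10 and chr12, as seen from FGF18 on chr5. A tip is the stretch within 10 Mb of the first or the last HindIII fragment listed for a chromosome in any library, and the interior is what lies between. Position alone decided which fragments belong, though the regions were chosen with earlier results of these data known. Of 206896 fragments listed in all, 107775 lie on these chromosomes, 11839 of them in the 16 tips (160 Mb in all) and 95936 in the 8 interiors (1275 Mb).

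The contacts were measured by 4C-seq in K562, an established line of leukaemia cells. In this assay crosslinked chromatin is cut, here with HindIII and then DpnII, and religated, and the fragments joined to a chosen viewpoint are amplified and counted. The 6 libraries fall into 3 groups of 2: cells with an empty vector (EV), cells with silencer 1 removed by CRISPR excision (S1KO), and cells with silencers 1 and 2 removed (DKO). The labels do not say whether a group is a single clone or a pool, nor which culture each replicate came from, so the p-values reflect the spread among these libraries alone, which may be technical. The EV cells are called untreated in one label, while another says that they also went through the excision procedure.

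A chromosome end carries the telomere, and the sequence inside it is often rich in genes and in G and C. HindIII cuts at a site made mostly of A and T, so such sequence tends to give fewer and longer fragments. 4C-seq counts ligations on the viewpoint's own chromosome as well as on others, and chr5 is left out of every value below. The viewpoint fragment, chr5:170851908-170853009 (hg19), itself lies 9.93 Mb from the last fragment listed on chr5.

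A library held 708503 to 1919737 reads, and 551067 to 1697917 of them lay outside chr5. Outside chr5 it listed 29847 to 42352 covered fragments, meaning fragments with at least 1 read, and 17359 to 24499 of these lay on the 8 chromosomes. A covered fragment outside chr5 was seldom seen again. Of the tip fragments, 81.0% were covered in a single library and 0 in all 6. Of the interior fragments these figures were 81.8% and 0. Replicates of a group shared 7.37% to 8.77% of their covered tip fragments, as a share of each library's list, and libraries of different groups shared 6.25% to 10.4%. Levels are therefore given as densities over megabases: covered fragments per Mb for every 100000 covered fragments outside chr5.

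Taken as a whole, the tips were covered about as densely as the interiors. In EV the tips held 39.8 and 39.8 covered fragments per Mb per 100000, and the interiors 41.2 and 40.3. In S1KO the tips stood at 40.8 and 40.5 and the interiors at 41.1 and 41.0. In DKO the tips stood at 39.0 and 43.0 and the interiors at 40.1 and 40.2. The tip lay below the interior in 5 of 6 libraries, and DKO replicate 2 was the exception. The ratio of tip to interior density ranged from 0.966 to 1.07, with a mean log2 ratio of -0.0067 ± 0.053 (SD over the 6 libraries; exact two-sided sign-flip permutation p = 0.812, where 0.0312 is the smallest possible). With the interior counted without gaps and fragments over 1 Mb, which lie mostly at centromeres, the mean log2 ratio was -0.062 (exact permutation p = 0.0625).

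That near equality holds for the number of fragments and not for the sequence they cover. Tip fragments were longer, with a median of 2529 bp among the listed ones against 2253 bp in the interiors. For covered length, fragments over 1 Mb were left out of the length, but they and the gaps stayed in the interior span, which raises the ratio. On this measure the tips exceeded the interiors in 6 of 6 libraries, at 1.18 times on average. The mean log2 ratio was 0.23 ± 0.068 (SD, exact sign-flip permutation p = 0.0312). With tips of 20 Mb in place of 10 Mb the log2 ratio by number was above 0 in 6 of 6 libraries, with a mean of 0.083 (exact permutation p = 0.0312). With tips of 5 Mb the mean was -0.071 (exact permutation p = 0.0938). Both kept 20.6 Mb of gaps and 27.2 Mb in fragments over 1 Mb in the interior span, which lowers interior density. Taking these out moved the value for tips of 10 Mb from -0.0067 to -0.062. It was not tried with tips of 20 Mb, so the direction there is not settled. Leaving out fragments over 1 Mb and measuring covered length were both alternatives chosen after seeing the data.

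Coverage was not even with distance from the end. The outermost 2 Mb held the fewest covered fragments, with a lowest, median and highest value over the 6 libraries of 31.7, 33.4 and 39.2 per Mb per 100000. From 2 to 5 Mb these were 39.6, 41.4 and 45.4, and from 5 to 10 Mb 41.0, 42.2 and 43.4. By number, density was highest just inside the tips, and it fell again toward the middle. From 10 to 20 Mb it was 41.9, 44.6 and 47.0, from 20 to 40 Mb 41.7, 42.8 and 44.5, and beyond 40 Mb 38.1, 39.1 and 39.7. The outermost 2 Mb stood at 0.770 times the level of the 10 to 20 Mb zone, lower in 6 of 6 libraries (log2 -0.38 ± 0.078, SD; exact sign-flip permutation p = 0.0312). The 10 to 20 Mb zone in turn exceeded the zone beyond 40 Mb in 6 of 6 libraries, by 1.14 times (exact permutation p = 0.0312). The gaps and fragments over 1 Mb all lie more than 20 Mb from an end, and they stayed in the spans of the inner zones. This lowers the density there, and how much of the fall toward the middle it makes up was not measured.

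**Figure D1:**
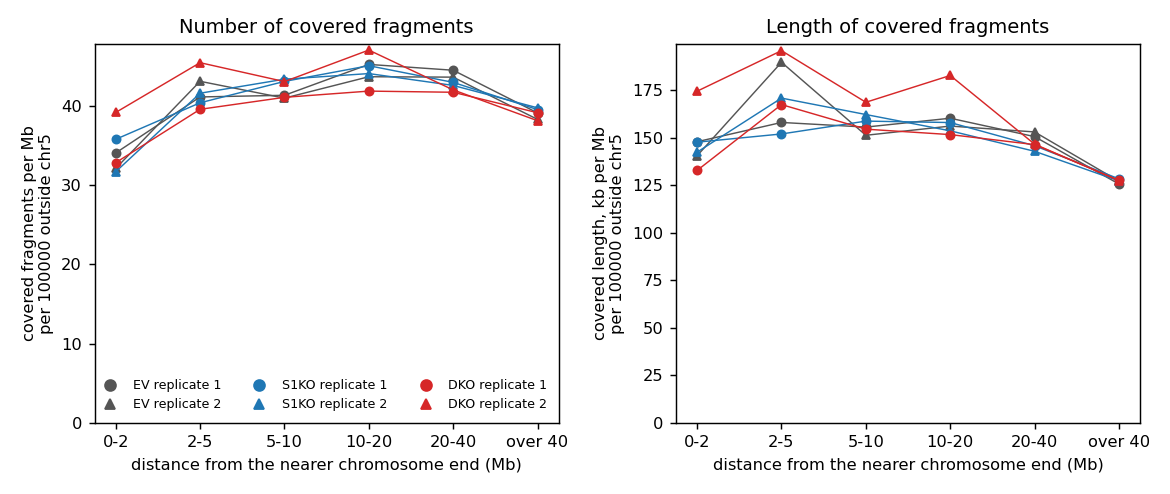
Covered fragments (left) and covered length in kb (right) per Mb and per 100000 covered fragments outside chr5, on the y axes, in 6 zones of distance from the nearer chromosome end, on the x axes, for the 8 chromosomes. Each line is a library, coloured by group. By number the outermost 2 Mb lie below the 10 to 20 Mb zone in every library, and by length they lie above the zone beyond 40 Mb.

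Counted by length, the outermost 2 Mb were still below the 10 to 20 Mb zone in 6 of 6 libraries, but only by a factor of 0.919. Against the zone beyond 40 Mb the direction turned. By number of fragments the outermost 2 Mb were at 0.880 times that zone, lower in 5 of 6 libraries (exact permutation p = 0.0625), and by length at 1.16 times, higher in 6 of 6 (exact permutation p = 0.0312). Both ratios are raised by the gaps and fragments over 1 Mb kept in the span of the zone beyond 40 Mb. The median length of listed fragments fell steadily inward, from 2749 bp in the outermost 2 Mb to 2198 bp beyond 40 Mb.

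The 16 tips differed far more from one another than tips differed from interiors. The SD between tips of the mean log2 ratio to the own interior was 0.41, while the SD of a tip's log2 ratio between the 6 libraries had a median of 0.12. In all 6 libraries 5 tips lay above the interior of their chromosome and 7 below it, and 4 lay on both sides. The means of the tips ran from 23.7 to 59.5 covered fragments per Mb per 100000, within the 5.18 to 73.8 of the 122 interior windows of the same width. The lowest of these windows, chr1:120058752-130058751, lies mostly inside a single listed fragment of 21.1 Mb. Of the tips, 5 lay below the lower quartile of those windows (33.4) and 5 above the upper one (46.8).

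**Figure D2:**
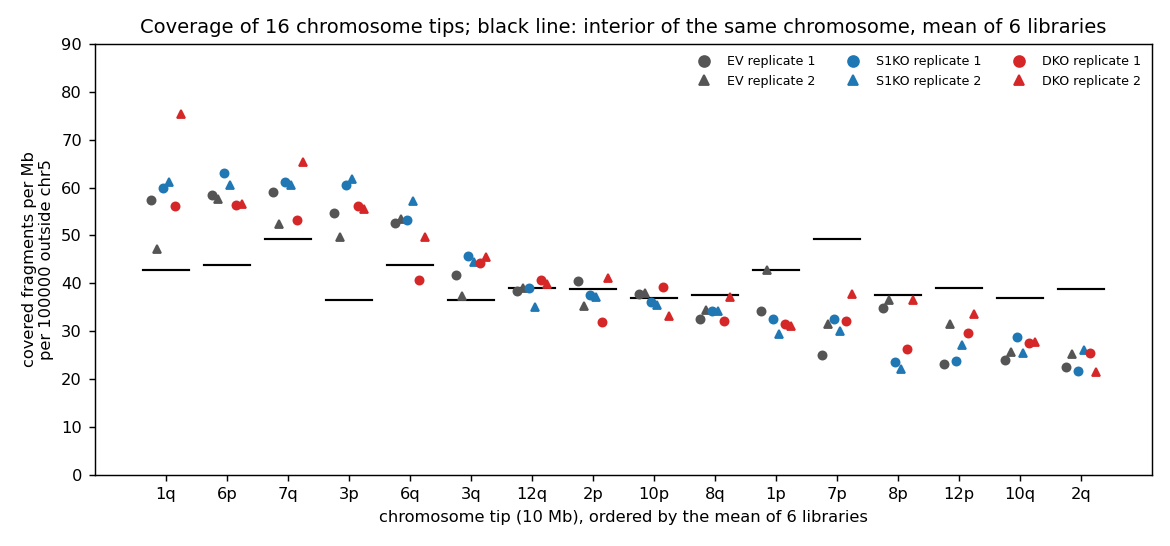
Covered fragments per Mb and per 100000 covered fragments outside chr5 (y axis) in each of the 16 tips (x axis, ordered by the mean of 6 libraries). Points are libraries, coloured by group and shaped by replicate, and the black line is the mean of the interior of the same chromosome. The tips 1q, 6p, 7q, 3p and 3q lie above their line in every library, and 2q, 10q, 12p, 8p, 7p and 8q below it; the 1p tip is below it except in EV replicate 2, which lies on it.

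The densest tips were those of 1q, 6p, 7q and 3p. The 1q tip, chr1:239220178-249220177, is known for a large cluster of olfactory receptor genes near its end. It stood at 57.4 and 47.2 in EV, 59.9 and 61.2 in S1KO and 56.2 and 75.4 in DKO, all above the chr1 interior, whose libraries lay between 41.8 and 43.6. DKO replicate 2 was the highest library there and EV replicate 2 the lowest. The 6p tip, chr6:156022-10156021, holds IRF4, a transcription factor of lymphoid cells, and DSP, which encodes the desmosome protein desmoplakin. It was the most even of the 4, at 58.4 and 57.6 in EV, 63.0 and 60.6 in S1KO and 56.5 and 56.6 in DKO, 1.34 ± 0.043 times its interior (SD, 6 libraries).

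The 3p tip, chr3:63689-10063688, holds the neuronal adhesion genes CHL1 and CNTN4 and the glutamate receptor gene GRM7. It exceeded its interior by the largest factor of the 16 tips, 1.54 ± 0.106 (SD, 6 libraries), with 54.6 and 49.6 in EV, 60.6 and 61.7 in S1KO and 56.2 and 55.6 in DKO. The 7q tip, chr7:149125373-159125372, holds the developmental signal gene SHH and the histone methyltransferase gene KMT2C. Its libraries lay at 59.1 and 52.4 in EV, 61.1 and 60.6 in S1KO and 53.2 and 65.3 in DKO, against 47.4 to 51.2 in the chr7 interior, the densest of the 8 interiors. These 4 tips overlap in their ranges, so their order among themselves is not larger than the spread between libraries.

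The next tips were 6q and 3q. The 6q tip, chr6:161051584-171051583, which holds TBP, the gene of the TATA-binding protein, stood at 52.6 and 53.4 in EV, 53.1 and 57.2 in S1KO and 40.7 and 49.6 in DKO. It lay above its interior in 5 of 6 libraries, and DKO replicate 1 was the exception. The 3q tip, chr3:187858938-197858937, which holds the transferrin receptor gene TFRC, ranged from 37.3 to 45.7 and lay above the chr3 interior in 6 of 6 libraries, at 1.18 ± 0.080 times (SD).

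In the middle of the order, 12q (35.1 to 40.7 over the 6 libraries), 2p (31.9 to 41.2), 10p (33.2 to 39.2) and 8q (32.2 to 37.2) overlapped one another. The tips of 12q, 2p and 10p lay on both sides of their interiors. The 8q tip was below its interior in 6 of 6 libraries, at 0.909 ± 0.061 times (SD). The 2p tip, chr2:15303-10015302, holds the neural transcription factor genes MYT1L and SOX11, and the 10p tip, chr10:98820-10098819, holds GATA3, a transcription factor gene of T cells.

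The sparsest tips were 2q, 10q, 12p, 8p, 7p and 1p. The 2q tip, chr2:233102409-243102408, which holds the histone deacetylase gene HDAC4, stood at 22.5 and 25.3 in EV, 21.6 and 26.0 in S1KO and 25.5 and 21.4 in DKO, 0.612 ± 0.057 times the chr2 interior (SD, 6 libraries). The 10q tip, chr10:125445797-135445796, with the DNA repair gene MGMT, ranged from 24.0 to 28.9 over the libraries, at 0.720 ± 0.046 times its interior. Both were low and even in all 3 groups.

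The 12p tip, chr12:65321-10065320, which holds GAPDH, a glycolytic enzyme gene, and CCND2, the gene of cyclin D2, stood at 23.0 and 31.4 in EV, 23.8 and 27.2 in S1KO and 29.5 and 33.5 in DKO. The 7p tip, chr7:41672-10041671, with the actin gene ACTB, stood at 25.05 and 31.4 in EV, 32.5 and 30.01 in S1KO and 32.2 and 37.9 in DKO, which is 0.640 ± 0.088 times its interior. In both tips the EV replicates differed by more than the S1KO replicates did. The 1p tip, chr1:58752-10058751, which holds ENO1, another glycolytic enzyme gene, stood at 34.3 and 42.7 in EV, 32.5 and 29.4 in S1KO and 31.6 and 31.2 in DKO.

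**Figure D3:**
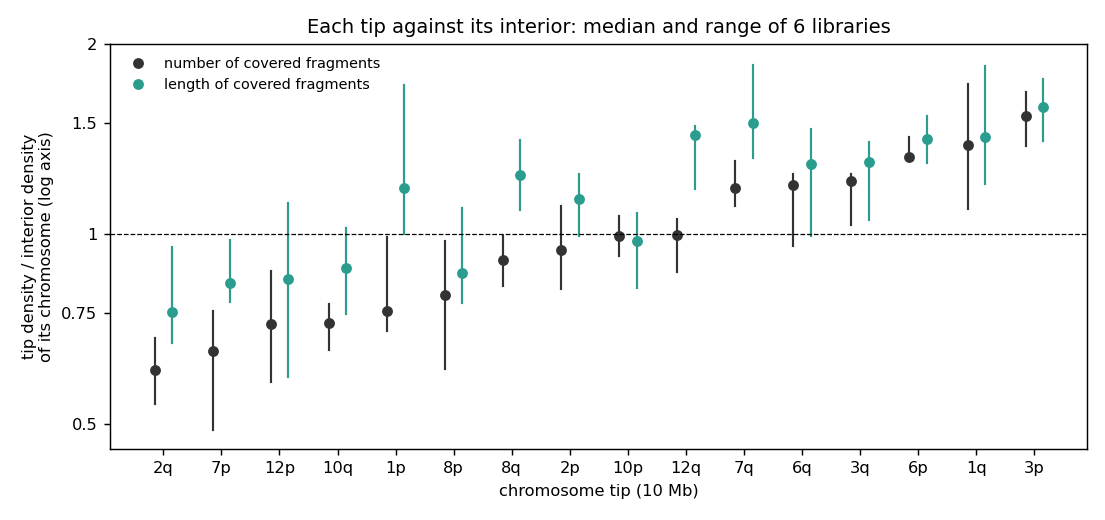
Density of each of the 16 tips divided by that of the interior of its chromosome (y axis, log scale), by number of covered fragments (dark) and by covered length (green). Points are medians and lines the range of the 6 libraries. By length the points lie higher than by number except at 10p, and the 1p, 2p, 8q and 12q medians lie above 1.

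Part of this order changed when length was counted. By covered length 7 tips lay above their interior in 6 of 6 libraries, 2 below it, and 7 had libraries on both sides. By number and by length alike, the interior spans kept gaps and fragments over 1 Mb, on chr1 a fragment of 21.1 Mb. This raises each ratio, so a tip near 1 could change side with those stretches taken out. The 1p tip, whose listed fragments had the longest median of the 16 (3582 bp), moved from a median of 0.757 times its interior by number to 1.18 by length. The 8q tip moved from 0.909 to 1.24 and the 12q tip from 0.998 to 1.43. The tips of 2q (0.752 by length) and 7p (0.837) stayed below their interiors in every library, and 3p (1.59), 6p (1.41), 1q (1.43), 7q (1.502) and 3q (1.30) above theirs. Across the 16 tips, the median listed length and the density by number had a Pearson correlation of -0.30 and a Spearman correlation of -0.32, a description over tips that share their libraries.

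A tip's level resembled that of the sequence beside it. Across the 16 tips, the mean density of the tip and that of the next 10 Mb inward had a Pearson correlation of 0.94 and a Spearman correlation of 0.91, again over tips that share libraries. The 6p tip stood at 58.8 and its neighbour at 57.8, the 3p tip at 56.4 and its neighbour at 56.6, and the 12p tip at 28.1 with 26.6 beside it. In 6 of the 16 tips (2p, 2q, 6q, 7p, 8p and 8q) the tip lay below the 10 Mb beside it in 6 of 6 libraries. In 0 it lay above in all 6, and 10 fell on both sides. The largest steps were at 8q, with 34.1 in the tip and 47.0 beside it, at 2q, with 23.7 and 32.3, and at 7p, with 31.5 and 42.4.

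Within the tips, the outermost 2 Mb were below the zone from 5 to 10 Mb in 12 of 16, and above it in 4 (3q, 6q, 8p and 12p). The steepest profile was that of 1p, which went from 11.9 ± 3.10 covered fragments per Mb per 100000 in its outermost 2 Mb to 31.1 ± 7.32 from 2 to 5 Mb and 43.8 ± 7.19 from 5 to 10 Mb (SD, 6 libraries). The 7p tip went from 18.0 ± 3.18 to 27.2 ± 7.002 and 39.5 ± 4.22. By contrast the 6p tip was flat, at 56.9 ± 7.73, 60.3 ± 5.85 and 58.6 ± 6.10, and so was 3p, at 53.5 ± 10.5, 56.0 ± 6.48 and 57.7 ± 9.43.

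Tips of short and long arms were compared within libraries. The 8 short-arm tips together stood at 39.0 ± 1.201 and the 8 long-arm tips at 41.9 ± 2.22 (SD, 6 libraries). The long-arm tips were higher in 5 of 6 libraries, EV replicate 2 being the exception, with a mean log2 difference of 0.103 ± 0.079 (exact sign-flip permutation p = 0.0625). The difference did not pass 0.05.

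Other readouts did not set tips apart. The median of reads on a covered tip fragment was 10 to 35 over the libraries, and on a covered interior fragment 10 to 34. Of fragments that the authors called at q under 0.05, 20 lay in tips and 111 in interiors over the 6 libraries. These are 0.139% of covered tip fragments and 0.0959% of covered interior fragments, against 0.095% of all covered fragments outside chr5. The share was higher in tips in 4 libraries and could not be ranked in DKO replicate 2, with 0 calls in both. The difference averaged 0.041 percentage points (exact sign-flip permutation p = 0.125), and 0.0248 without EV replicate 1 (exact permutation p = 0.25). All 20 tip calls were made in EV or S1KO libraries, each fragment in 1 library only. Interior calls were as unevenly spread, at 24 and 53 in EV, 9 and 23 in S1KO and 2 and 0 in DKO, so the lack of DKO calls is not particular to tips.

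The fragments seen most often were not the authors' calls. The tip fragments covered in 5 libraries were chr6:170689931-170694189, chr3:9052691-9054154 and chr6:863268-863360, and 33 more were covered in 4 libraries. Of these 33, chr1:241870026-241873695 and chr6:7473104-7480194 had the highest sums of reads relative to each library's reads outside chr5. The fragment chr6:170689931-170694189 held 0 and 43 reads in EV, 13 and 46 in S1KO and 1 and 42 in DKO. None of these 5 named tip fragments was called in any library. Of the interior fragments 11 were covered in 5 libraries, and the 5 with the highest sum of reads relative to each library's reads outside chr5 were chr7:78901691-78904750, chr7:122120407-122123169, chr2:74285048-74291513, chr6:57282218-57283134 and chr1:219706309-219714297, again without a call.

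The comparison of S1KO with EV asks what removal of silencer 1 does to contacts with these regions. The tips took 6.53% and 6.48% of covered fragments outside chr5 in S1KO (95% Wilson intervals 6.30% to 6.77% and 6.23% to 6.74%) and 6.37% and 6.37% in EV (6.13% to 6.61% and 6.14% to 6.61%). The intervals cover counting error only, and they overlap between the groups. Both S1KO libraries lay above both EV libraries, by 0.133 percentage points (SE 0.025; exact two-sided permutation p = 0.333, the smallest for 2 against 2 libraries). The ratio of tip to interior density did not separate the groups (log2 difference 0.02, SE 0.017, exact permutation p = 0.667). Each of these differences turned negative with fragments of at least 10 reads, with tips of 5 Mb and with reads in place of fragments.

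Among single tips, that of the short arm of chromosome 8 fell in S1KO. The 8p tip, chr8:136802-10136801, held 34.8 and 36.6 covered fragments per Mb per 100000 in EV and 23.6 and 22.1 in S1KO (log2 fold change -0.64, SE 0.15, edgeR adjusted p = 0.0081). It was the only tip of 16 past the threshold, against 4.61% of the 282 windows of 10 Mb tested over the genome outside chr5 (4.26% lower and 0.355% higher in S1KO). The call was lost in 4 of 15 alternatives, among them DESeq2 (adjusted p = 0.21), tips of 5 Mb (edgeR adjusted p = 0.068) and the fit without S1KO replicate 2 (edgeR adjusted p = 0.068), while the log2 fold change stayed between -0.82 and -0.59.

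The other 15 tips had log2 fold changes of -0.31 to 0.23 for S1KO against EV, and the 16 tips had a median of 0.041, beside 0.015 over all windows. The 1p tip was lower (log2 -0.31, edgeR adjusted p = 0.28) and the 3p tip higher (log2 0.23, edgeR adjusted p = 0.38) without passing. The 1p tip passed with tips of 20 Mb (log2 -0.44, edgeR adjusted p = 0.023) but not with tips of 5 Mb (log2 -0.17, edgeR adjusted p = 0.88). Its log2 fold change was -0.46 without EV replicate 1 and -0.14 without EV replicate 2.

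**Figure D4:**
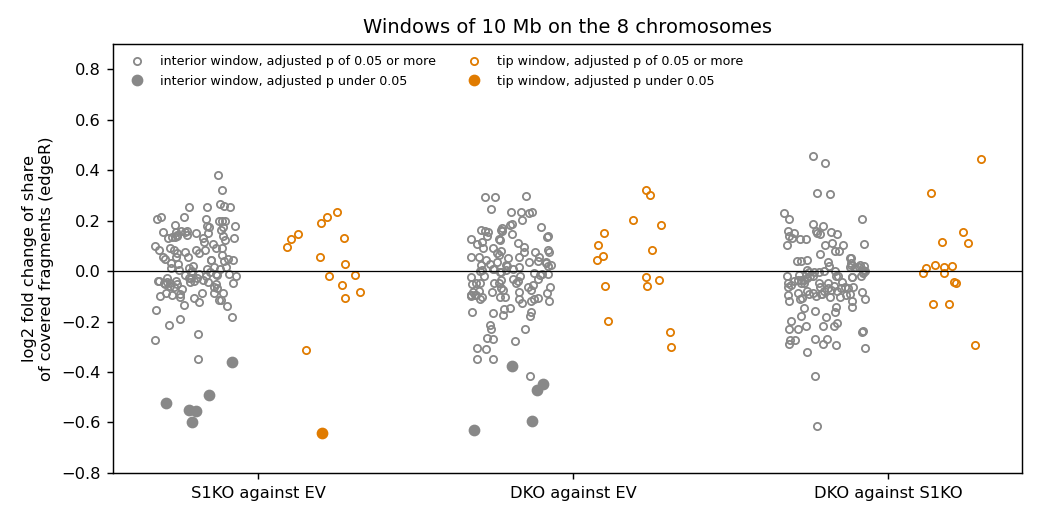
Log2 fold change of the share of covered fragments (y axis, edgeR) in windows of 10 Mb on the 8 chromosomes for the 3 comparisons (x axis). Orange points are tips, grey points interior windows, and filled points have an adjusted p under 0.05. Filled points lie below 0, and the single filled tip is 8p in S1KO against EV.

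The interior of the same arm moved with the 8p tip. Of 130 interior windows tested on the 8 chromosomes, 6 passed for S1KO against EV, 3 on the short arm of chr8 and 3 on that of chr1. All were lower in S1KO. Of the 136 windows tested on other chromosomes 6 passed as well. Over the genome outside chr5, 13 of 282 passed (4.61%), 12 of them lower, so neither the count nor the direction sets these interiors apart. Going inward from the 8p tip, chr8:10136802-20136801 held 36.8 and 44.2 in EV and 28.9 and 26.3 in S1KO (log2 -0.55, edgeR adjusted p = 0.034). The next, chr8:20136802-30136801, held 39.3 and 41.1 in EV and 29.1 and 28.0 in S1KO (log2 -0.49, edgeR adjusted p = 0.014). The third, chr8:30136802-40136801, held 32.8 and 38.3 in EV and 24.8 and 22.1 in S1KO (log2 -0.60, edgeR adjusted p = 0.0081). The S1KO and EV values did not overlap in any of the 3, but the windows were chosen by their calls in the same libraries, so this is no separate support. Their calls were lost in 7, 7 and 6 of 13 alternatives in that order, each of them with DESeq2, without EV replicate 2 and without S1KO replicate 2, and that of the middle window also without S1KO replicate 1.

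No window farther along the chromosome passed. In the window chr8:40136802-50136801, which spans the unlisted stretch at the centromere, EV stood at 23.5 and 23.1 and S1KO at 21.4 and 22.7 (log2 -0.09, edgeR adjusted p = 0.91). The 8q tip stood at 32.6 and 34.5 in EV and 34.1 and 34.3 in S1KO (log2 0.03, edgeR adjusted p = 0.95). The density of the whole short arm divided by that of the long arm was 0.875 and 0.968 in EV, 0.665 and 0.595 in S1KO and 0.674 and 0.802 in DKO. The density of the 8p tip divided by that of the rest of the short arm was 0.964 and 0.918 in EV, 0.851 and 0.885 in S1KO and 0.960 and 1.16 in DKO. Here too S1KO lay below EV, a difference that was not tested, and DKO replicate 2 was the highest library. The number of copies of an arm and the contacts of each copy cannot be told apart in these counts.

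**Figure D5:**
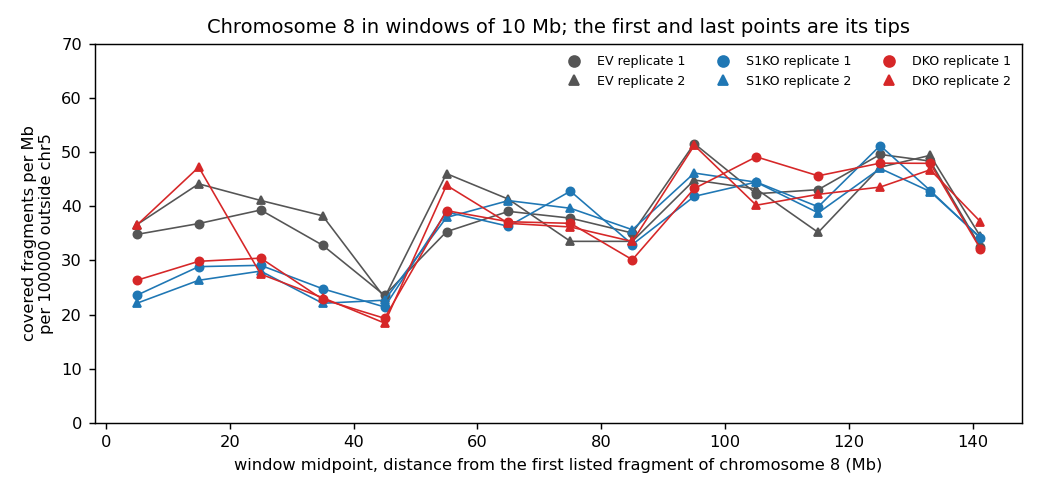
Covered fragments per Mb and per 100000 covered fragments outside chr5 (y axis) in consecutive windows of chromosome 8, by distance of the window midpoint from the first listed fragment (x axis, Mb). Each line is a library. In the first 4 points, on the short arm, S1KO lies below EV without overlap, and DKO replicate 2 lies near or above EV in the first 2 points and near S1KO in the next 2.

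On chr1 the interior windows beside the 1p tip were lower in S1KO too. The window chr1:10058752-20058751 held 39.3 and 49.1 in EV and 27.4 and 33.4 in S1KO (log2 -0.55, edgeR adjusted p = 0.0081). The window chr1:30058752-40058751 held 53.3 and 51.7 in EV and 38.2 and 34.5 in S1KO (log2 -0.52, edgeR adjusted p = 0.0042). S1KO and EV did not overlap in either window, which again were chosen by their calls. The first call was lost in 5 of 13 alternatives, with EV replicate 2 or S1KO replicate 1 left out among them, and the second in 4, with S1KO replicate 2 left out among them. The count of windows past the threshold over the genome, 13, fell to 3 without S1KO replicate 2, to 6 without S1KO replicate 1 and to 0 with DESeq2 (13 at an unadjusted p under 0.05).

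The comparison of DKO with EV asks what removal of both silencers does. The tips took 6.23% and 6.88% of covered fragments outside chr5 in DKO (95% Wilson intervals 5.98% to 6.50% and 6.60% to 7.17%). The DKO libraries lay on either side of the EV libraries, so no shift of the tips as a whole was seen. The difference was 0.185 percentage points (SE 0.322, exact permutation p = 1), and -0.137 without DKO replicate 2. The log2 ratio of tip to interior differed by 0.06 (SE 0.071, exact permutation p = 0.667), and by -0.0084 without DKO replicate 2. Against EV and S1KO together, which both keep silencer 2, the tip share differed by 0.119 points (exact permutation p = 0.667) and the log2 ratio by 0.051 (exact permutation p = 0.333), where 2 against 4 libraries can reach 0.0667. Without DKO replicate 2 both of these turned, to -0.203 points and -0.018.

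Of the 16 tips 0 passed edgeR's test for DKO against EV, against 3.19% of the 282 windows (2.48% lower and 0.709% higher in DKO), and 4 had an unadjusted p under 0.05. Their median log2 fold change was 0.051, beside 0.0097 over all windows. The 4 were 1p (log2 -0.30), 6q (log2 -0.24), 7p (log2 0.30) and 1q (log2 0.32), and their edgeR adjusted p lay between 0.28 and 0.47. DESeq2 also called 0 tips, with 0 at an unadjusted p under 0.05. The log2 fold change of the 1q tip was 0.53 without DKO replicate 1 and 0.11 without DKO replicate 2. It was 0.47 without EV replicate 1 and 0.19 without EV replicate 2.

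The short arm of chr8 was split in DKO. In its tip DKO replicate 1 stood at 26.3, near S1KO, and DKO replicate 2 at 36.5, within the EV values, and the next window showed the same split, at 29.8 and 47.2, the latter above both EV libraries. From 20 to 40 Mb of the arm the replicates came together below EV. The window chr8:20136802-30136801 stood at 30.4 and 27.5 (log2 -0.47, edgeR adjusted p = 0.041) and chr8:30136802-40136801 at 22.8 and 23.1 (log2 -0.63, edgeR adjusted p = 0.013). In both windows, likewise chosen by their calls, the DKO libraries lay below both EV libraries. The first call was lost in 8 of 13 alternatives, without EV replicate 2 and without either DKO replicate among them, and the second in 5, without EV replicate 2 and without DKO replicate 1 among them.

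Over the genome outside chr5, 9 of 282 windows passed for DKO against EV (3.19%), 7 of them lower. Of the 136 windows on other chromosomes 4 passed. Of the 130 interior windows tested on the 8 chromosomes 5 passed, again all lower. The other 3 were chr1:20058752-30058751, at 47.1 and 49.6 in EV and 31.9 and 32.2 in DKO (log2 -0.59, edgeR adjusted p = 0.0014), chr1:30058752-40058751 (log2 -0.38, edgeR adjusted p = 0.049) and chr12:40065321-50065320, at 44.6 and 47.0 in EV and 32.5 and 34.8 in DKO (log2 -0.45, edgeR adjusted p = 0.029). The call of chr1:20058752-30058751 was lost in 1 of 13 alternatives, DESeq2. That of chr1:30058752-40058751 was lost in 11, with each of the 4 libraries left out in turn, and that of the chr12 window in 6, without EV replicate 2 and without DKO replicate 1 among them. The EV libraries are shared with the comparison of S1KO, so windows low in both are not independent. Without DKO replicate 1 the 9 windows over the genome fell to 5, and DESeq2 called 2, neither on the 8 chromosomes.

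Setting DKO against S1KO asks what the loss of silencer 2 adds to that of silencer 1. No tip and no other window passed edgeR's test (0% of 282, with 30 windows and 2 tips at an unadjusted p under 0.05, and 0 by DESeq2, with 14 windows under 0.05). The tip share differed by 0.053 percentage points (SE 0.323, exact permutation p = 1), and by -0.269 without DKO replicate 2. The 2 tips with a low p were 8p (log2 0.44, SE 0.16, edgeR adjusted p = 0.17) and 6q (log2 -0.29, SE 0.12, edgeR adjusted p = 0.24). Without DKO replicate 1, 3 windows passed, the 8p tip among them (log2 0.67, edgeR adjusted p = 0.027).

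Tips of other chromosomes gave a similar picture. On the 9 other chromosomes with a long and a short arm (chr5, chrY and the acrocentric chromosomes left out) the 18 tips stood at 1.01 ± 0.029 times their interiors (SD, 6 libraries), with a range of 0.957 to 1.03. The log2 ratio was higher there than on the 8 large chromosomes in 4 of 6 libraries, by 0.018 on average (exact sign-flip permutation p = 0.344), so a difference between these sets was not detected.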

How the data were processed

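The authors' deposited files list, for each library, the HindIII fragments with reads; Bowtie2 2.2.5 and hg19 are named in the submitters' processing notes, and for the interaction caller and its filters the name is not given in the sources used here. Read counts per fragment are raw, per the file headers. The deposited p-value and q-value are the authors' own for each library. A deposited column headed RPMs is treated as a score and was used for nothing.

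A fragment with at least 1 read was covered, and unlisted fragments counted as 0. Numbers of covered fragments were tested in windows of 10 Mb outside chr5 (the tips of every chromosome, then consecutive interior windows) with edgeR 4.0.16 in R 4.3.3, by its quasi-likelihood test. All 6 libraries entered 1 fit, with covered fragments outside chr5 as library size and no further scaling. Windows needed more than 60 covered fragments over the libraries, which left 282 of 291, including all 16 tips and 130 of 131 interior windows of the 8 chromosomes. Adjusted p-values are Benjamini-Hochberg values over all windows, with a threshold of 0.05. DESeq2 1.42.0 was an alternative. Fold changes are relative to the covered fragments outside chr5. Single values were compared over libraries by exact permutation tests in Python 3.11.15 with numpy 2.4.6, pandas 2.3.3 and scipy 1.17.1. Plots were made with matplotlib 3.10.9. Tested on simulated data for DKO against EV (282 windows), the fit recovered 80% of the 30 windows given a 1.5-fold change and 100% of the 30 given a 2-fold change, with 5 false calls. Each simulated window had the same dispersion (spread between libraries), 0.00094, so windows with a wider spread were not tried.

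Named were all 16 tips, at most 5 interior windows past the threshold per comparison, and 5 tip and 5 interior fragments seen in most libraries. The members and lists were chosen with earlier results of these data known. The comparison of the arms of chr8, the tip profiles and the sequence beside the tips were added after the values were seen. Gene names are background, and no hg19 gene positions or sequence were used here.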

Additional observations from a re-analysis of the deposited data

How the results depend on the processing

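Tip shares rest on 2053 to 2715 covered tip fragments per library, and 2 libraries a group cannot reach p under 0.333 in an exact permutation test. Values are relative to all covered fragments outside chr5, so a change shared by the whole genome is not seen. Unlisted fragments counted as 0, and fragment length, mappability and copy number were not corrected.

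Of the main values under the alternatives, 156 kept their direction and side of the threshold (counts within 1.5 times). Another 18 turned in sign and 16 counts moved further. The causes of these turns and moves were not tested. Tip share and ratio differences between groups could not change side. Their smallest possible exact permutation p, 0.333 (2 against 2 libraries) or 0.0667 (2 against 4), lies above the threshold. Nor could values compared within libraries once 1 library was left out. For all of these only the direction was tried, so the count of 156 says little about the threshold. For S1KO against EV, the tip share difference (0.133 points) became -0.035 with at least 10 reads, -0.0329 with tips of 5 Mb and -0.0148 with reads in place of fragments, and the log2 ratio (0.02) became -0.0305, -0.0291 and -0.0324. The tip share of DKO against S1KO became -0.0278 without the 8p tip, an alternative chosen after seeing the data. Within libraries the log2 ratio of tip to interior (-0.0067) became 0.0825 with tips of 20 Mb, and, in 2 alternatives chosen after seeing the data, 0.232 by covered length and 0.018 without the 8p tip. Each of these values kept gaps and fragments over 1 Mb in the interior span, which raises the ratio.

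Leaving out 1 library at a time gave tip share differences of 0.108 to 0.158 (S1KO against EV), -0.137 to 0.508 (DKO against EV), -0.269 to 0.375 (DKO against S1KO) and -0.203 to 0.441 (DKO against EV and S1KO). The log2 ratio differences were 0.00305 to 0.0367, -0.00841 to 0.13, -0.0283 to 0.11 and -0.0183 to 0.12 in the same order, and the ratio within libraries -0.0273 to 0.00206, positive without EV replicate 1 and without DKO replicate 1.

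The windows past the threshold for S1KO against EV (13) became 0 with DESeq2, 7 with at least 10 reads, 0 with windows of 5 Mb, 4 with reads and 1 with the replicate block, and 3 to 10 without 1 library. For DKO against EV (9) they became 2, 5 with at least 10 reads, 3 with windows of 20 Mb, 4 with reads and 3 with the replicate block, and 5 to 10 without 1 library. For DKO against S1KO (0) they became 6 with windows of 20 Mb and 6 in a fit of the 4 libraries compared, 0 with the replicate block, and 0 to 3 without 1 library. The labels do not say that a number marks shared material, and same-numbered libraries had correlations of deviations of 0.084 (EV with S1KO), -0.188 (EV with DKO) and -0.080 (S1KO with DKO), so the numbers were not taken as pairs. The 8p tip had an edgeR adjusted p of 0.081 under the replicate block for S1KO against EV, within 0.0011 to 0.21 over its alternatives. Of the values of the named tips and windows, 196 stayed on their side of the threshold, 64 lost it, 5 gained it and 0 changed sign.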
